A study of Mus musculus with 6 samples.

Results

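The genes examined here were 9 regulators and markers of differentiating spermatogonia, *Kit*, *Sohlh1*, *Sohlh2*, *Dmrt1*, *Dmrtb1*, *Foxo1*, *Rhox13*, *Sox3* and *Upp1*. They were taken by name from a table of 54532 mouse genes, and all 9 were present. The libraries came from testis germ cells labelled as STRA8+ cells, with 3 libraries of genotype Cre, called control, and 3 of genotype *Srsf1* knockout, called cKO. The labels of both groups carry the treatment conditional knockout. SRSF1 is a serine/arginine-rich protein that takes part in the splicing of messenger RNA. The Cre driver, the age of the mice, how the cells were separated and whether the libraries of a group came from separate animals are not given in the sources used here. The p-values therefore measure the spread between these libraries only. The question put to the data was whether RNA of these 9 genes differed between STRA8+ cells with and without *Srsf1*.

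Spermatogonia leave the stem cell pool when retinoic acid reaches them, and they then divide by mitosis several times before entering meiosis. On the way they gain KIT, the receptor tyrosine kinase for KIT ligand, which signals through PI3K, AKT and mTOR and keeps the forkhead factor FOXO1 out of the nucleus. SOHLH1 and SOHLH2 are basic helix-loop-helix factors that bind E-boxes and activate *Kit*. DMRT1 and DMRTB1 (also called DMRT6) carry the DM domain, a zinc-containing DNA-binding fold. DMRT1 holds back meiotic entry in spermatogonia, and DMRTB1 acts in the change from mitosis to meiosis. RHOX13 is a homeobox protein and SOX3 an HMG box protein, both encoded on the X chromosome, and UPP1 is uridine phosphorylase, which splits uridine into uracil and ribose phosphate. STRA8 itself is induced by retinoic acid in differentiating spermatogonia and in cells about to enter meiosis.

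Sequence upstream of the start site is shown for 3 of the genes, for *Dmrtb1* because it was the member that differed between the groups, and for *Sohlh1* and *Sohlh2* because they encode the E-box-binding pair. The sequences are the 250 bases before the annotated start in RefSeq on GRCm38.p6, written 5′ to 3′ on the strand of the gene. Capitals mark matches to the E-box CANNTG and to ACANTGT, a core of the DM domain site.
Dmrtb1, chr4:107684231-107684480, minus strand: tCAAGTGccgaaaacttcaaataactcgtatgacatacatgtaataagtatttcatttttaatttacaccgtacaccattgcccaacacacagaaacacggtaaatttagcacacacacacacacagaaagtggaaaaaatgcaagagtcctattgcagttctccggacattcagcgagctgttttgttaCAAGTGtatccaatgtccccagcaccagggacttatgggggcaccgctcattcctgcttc
Sohlh1, chr2:25847249-25847498, minus strand: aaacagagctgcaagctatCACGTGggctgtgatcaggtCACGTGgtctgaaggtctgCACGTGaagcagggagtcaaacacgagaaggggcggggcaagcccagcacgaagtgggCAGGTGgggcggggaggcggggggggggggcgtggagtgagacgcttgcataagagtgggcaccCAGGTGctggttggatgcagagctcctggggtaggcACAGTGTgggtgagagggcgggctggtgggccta
Sohlh2, chr3:55181794-55182043, plus strand: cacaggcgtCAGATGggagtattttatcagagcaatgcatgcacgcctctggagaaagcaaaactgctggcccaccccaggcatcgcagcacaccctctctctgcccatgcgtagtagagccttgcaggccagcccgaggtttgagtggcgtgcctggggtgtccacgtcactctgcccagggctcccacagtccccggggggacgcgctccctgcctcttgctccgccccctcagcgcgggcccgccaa
The RefSeq table of windows from 250 bases before to 50 bases after a start held 11 windows for 7 of the 9 genes, and *Dmrt1* and *Sox3* were not among them. Both strands were searched for CANNTG, for ACANTGT, for the FOXO motif GTAAACA and for the SOX motif AACAAT, of which the last can overlap a DM domain match. Over 32851 windows of all genes, 72.3% held CANNTG, 7.54% ACANTGT, 3.65% GTAAACA and 10.7% AACAAT. The *Sohlh1* window held 5 E-boxes, and 2.10% of all windows held 5 or more. It also held the only ACANTGT match among the members' windows. The *Dmrtb1* window shown held 3 E-boxes, of which 2 lie in the bases printed, and the *Sohlh2* window held 1. None of the 11 windows held GTAAACA or AACAAT. A match is a run of letters and not a measured binding site.

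The level of *Srsf1* was 84.7, 45.2 and 51.9 FPKM (fragments counted on a gene per kilobase of its length, after the authors' scaling for library size) in the control libraries and 5.08, 4.94 and 5.17 FPKM in the cKO libraries. The cKO mean was 8.36% of the control mean, and the difference was called (log2 fold change -3.29, SE 0.22, limma with Benjamini-Hochberg adjusted p = 5.6e-05). Between 14447887 and 17310353 fragments were counted on genes per library. *Stra8* was at 222 to 313 FPKM in the 6 libraries, with no difference called (0.15, SE 0.12, adjusted p = 0.36 in limma). The libraries differed in the stages that their markers represent. The summed level of 10 spermatid markers was 2594, 8535 and 2550 FPKM in control replicates 1 to 3 and 7.79 to 9.23 FPKM in cKO. The summed level of 10 pachytene markers was 799 to 970 FPKM in control and 107 to 129 FPKM in cKO. Control replicate 2 stood apart by its spermatid transcripts. In bulk RNA of this kind, fewer cells of a stage and less RNA per cell cannot be told apart.

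Of the 9 genes, *Dmrtb1* was lower in cKO, and no other member passed the test in either direction. The test was limma on log2(FPKM + 1) over 15451 genes whose mean over the 6 libraries reached 1 FPKM, called at a Benjamini-Hochberg adjusted p of at most 0.05. All 9 genes passed that filter. Over all genes tested, 34.0% were called, 22.2% as lower and 11.8% as higher in cKO. The counts of calls in the lists of related genes below stand beside these shares. Among the 9 genes 11.1% were called, which is the 1 gene *Dmrtb1*. The other 8 members had log2 fold changes between 0.02 and 0.36, all above 0, with adjusted p between 0.054 and 0.94 in limma. The median over the 9 members was 0.19, and the median over all genes tested was -0.0082. Control and cKO libraries did not overlap for 4 members, *Dmrtb1*, *Rhox13*, *Sohlh1* and *Kit*, or 44.4% of the 9, against 50.4% of all genes tested. In limma, 5 of the 9 members had an unadjusted p under 0.05, against 44.8% of all genes tested, called genes included in each case. These were *Dmrtb1* and 4 members not called, *Rhox13*, *Sohlh1*, *Sohlh2* and *Dmrt1*. With limma-voom on fragments recovered from FPKM, *Rhox13* and *Sohlh2* passed (log2 fold changes 0.41 and 0.36).

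**Figure D1:**
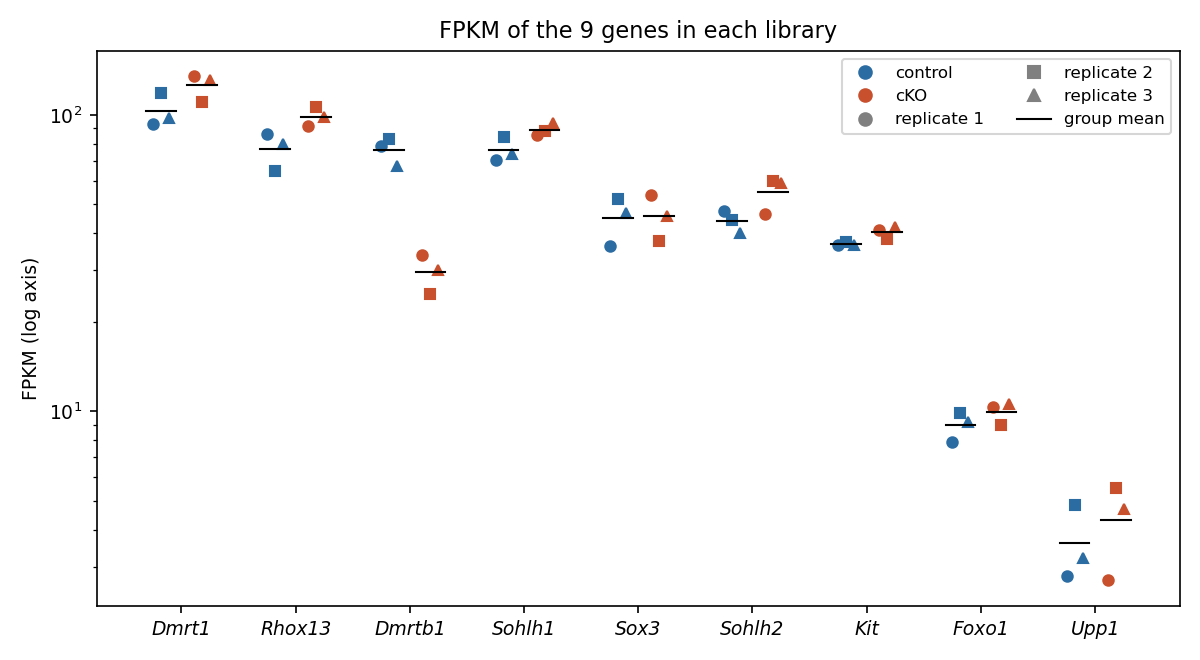
FPKM of the 9 genes (log axis) in each of the 3 control (blue) and 3 cKO (red) libraries, with symbols for replicates 1 to 3 and a line at the group mean. The 3 cKO values of *Dmrtb1* lie at 24.8 to 33.7 FPKM, below the control values of 67.2 to 83.2 FPKM, and no other gene has its cKO values below its control values.

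**Figure D2:**
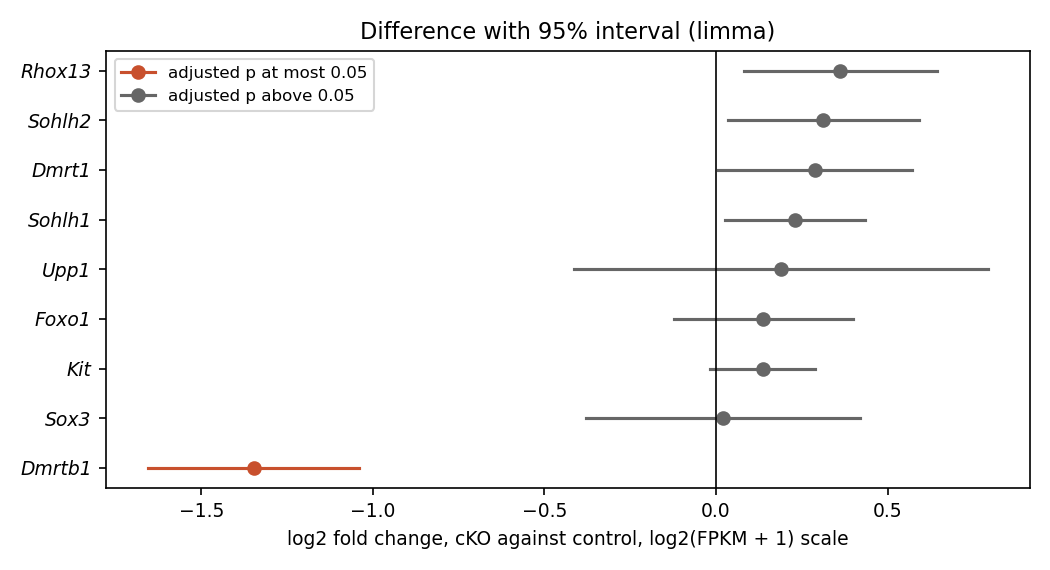
Log2 fold change of cKO against control on the log2(FPKM + 1) scale for the 9 genes, with the 95% interval from limma as bars, red where the adjusted p was at most 0.05. *Dmrtb1* lies at -1.35, and the other 8 genes lie between 0.02 and 0.36.

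Of the DM domain genes, *Dmrtb1* was called lower in cKO and *Dmrt1* was not called. The level of *Dmrtb1* was 78.5, 83.2 and 67.2 FPKM in control and 33.7, 24.8 and 29.9 FPKM in cKO. Every cKO library was below every control library, and the lowest control value was 2.0 times the highest cKO value. The mean fell from 76.3 ± 8.18 FPKM to 29.5 ± 4.44 FPKM (SD, n = 3), which left 38.6% of the control level. The log2 fold change was -1.35 (SE 0.13, 95% interval -1.65 to -1.04, limma adjusted p = 0.0003). Over all genes tested, 1633 genes, or 10.6%, had a lower log2 fold change than *Dmrtb1*. Without control replicate 2, the library with the most spermatid transcripts, the log2 fold change was -1.28 (limma adjusted p = 0.00125). These levels rested on 757 to 2693 fragments per library.

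*Dmrt1* had the highest level of the 9 genes in both groups, at 93.1, 118.0 and 97.5 FPKM in control and 135.2, 110.3 and 131.3 FPKM in cKO. Control replicate 2 was above cKO replicate 2, so the groups overlapped, and the other cKO values were above all control values. The means were 102.8 ± 13.3 and 125.6 ± 13.4 FPKM (SD, n = 3). The log2 fold change was 0.29 (SE 0.12, 95% interval 0.0049 to 0.57, limma adjusted p = 0.11). It was 0.39 and past the threshold without control replicate 2 (adjusted p = 0.0356 in limma).

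Set against each other within a library, *Dmrtb1* stood at 0.745 times *Dmrt1* in control and at 0.240 times *Dmrt1* in cKO, from the mean log2 ratios of FPKM + 1. Those log2 ratios were -0.42 ± 0.16 in control and -2.06 ± 0.074 in cKO (SD, n = 3). The groups did not overlap, the difference was -1.64, and the exact permutation p was 0.1 (two-sided), the smallest that 3 libraries against 3 allow, or 0.3 adjusted over 3 ratios. Among the 9 other DM domain genes, 8 were tested and 1 was called, as lower. The median log2 fold change was 0.21. The called gene was *Dmrtc2*, a testis DM domain gene and the paralog with the highest level, at 73.0 ± 7.05 FPKM in control and 57.0 ± 6.75 FPKM in cKO (-0.35, SE 0.11, limma adjusted p = 0.047). No gene of the list was called in limma without control replicate 1, control replicate 3 or cKO replicate 3, with no filter on FPKM, without the intensity trend, or with FPKM computed from the sum of fragments. Without cKO replicate 1, and with quantile normalization, 2 genes of the list were called.

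*Dmrtb1* lies on chromosome 4 of GRCm38 (107676290 to 107684230, minus strand), and GENCODE M21 gives it 3 transcripts, of which 2 are protein-coding and 1 retains an intron. The longest coding transcript has 1861 bases in 4 exons. *Dmrt1* lies on chromosome 19 (25505618 to 25604329, plus strand), with 5 exons in its longest coding transcript. The table gives a single value per gene, so it does not separate these transcripts. Every 100-base window of the transcripts of both genes occurred in no other annotated gene. The 3 protein-coding genes with the profile nearest to *Dmrtb1* over the 6 libraries, out of 12320, were *Atg9a*, which encodes a membrane protein of autophagy, *Poll*, which encodes DNA polymerase lambda, and *Rai14*, which encodes an actin-associated protein. Their root mean square differences from *Dmrtb1* were 0.053, 0.068 and 0.071 on the log2(FPKM + 1) scale, after each gene was centred on its own mean. Their log2 fold changes were -1.32, -1.28 and -1.29, which follows from choosing them by their values in these same libraries.

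The E-box-binding pair *Sohlh1* and *Sohlh2* did not pass the test. The level of *Sohlh1* was 70.4, 84.1 and 73.6 FPKM in control and 85.4, 88.1 and 94.0 FPKM in cKO. All cKO values were above all control values, but the gap between the highest control and the lowest cKO library was small, a ratio of 1.02. The means were 76.0 ± 7.15 and 89.2 ± 4.42 FPKM (SD, n = 3), with a log2 fold change of 0.23 (SE 0.086, 95% interval 0.03 to 0.43, limma adjusted p = 0.080). The exact permutation p of this single gene was 0.1, the smallest possible. Without control replicate 2 the log2 fold change was 0.30 and past the threshold (limma adjusted p = 0.0237).

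The level of *Sohlh2* was 47.5, 44.2 and 40.0 FPKM in control and 46.4, 59.7 and 58.9 FPKM in cKO. The value of cKO replicate 1 lay within the control range, and the other cKO values lay above it. The means were 43.9 ± 3.76 and 55.0 ± 7.43 FPKM (SD, n = 3), with a log2 fold change of 0.31 (SE 0.12, 95% interval 0.03 to 0.59, limma adjusted p = 0.081). Without cKO replicate 1 it was 0.43 and past the threshold (limma adjusted p = 0.0233). The log2 ratio of *Sohlh1* to *Sohlh2* was 0.78 ± 0.19 in control and 0.70 ± 0.16 in cKO (SD, n = 3). The groups overlapped, and the exact permutation p was 0.6.

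Both genes have 1 annotated transcript, of 8 exons for *Sohlh1* on chromosome 2 (25842995 to 25847248, minus strand) and of 11 exons for *Sohlh2* on chromosome 3 (55182028 to 55209957, plus strand). Of 14 other helix-loop-helix factors of germ cells and their partners, 13 were in the table and 12 were tested. Of these, 3 were called higher and 1 lower. Their median on the log2 scale was 0.25. *Id4*, an inhibitor that carries no DNA-binding region and marks spermatogonial stem cells, fell from 5.24 ± 0.246 to 1.55 ± 0.239 FPKM (-1.30, SE 0.12). Its relative *Id1* rose from 2.38 ± 0.794 to 5.73 ± 1.68 FPKM (0.99, SE 0.24). *Mga*, which encodes a partner of MAX that represses meiotic genes, rose from 28.4 ± 2.04 to 48.1 ± 4.91 FPKM (0.74, SE 0.096). *Tcf3*, which encodes a dimer partner of many helix-loop-helix factors, rose from 53.6 ± 6.55 to 70.8 ± 6.05 FPKM (0.40, SE 0.11). The limma adjusted p of these 4 genes were 0.000237, 0.0184, 0.00131 and 0.0287. The 4 calls of the list became 2 without control replicate 1, control replicate 3, cKO replicate 1 or cKO replicate 3, and 2 with the filter at 5 FPKM. They became 9 with quantile normalization (median 0.52) and 7 with limma-voom (median 0.42). In the ovary, SOHLH1 and SOHLH2 act on oocyte genes, and of 6 such genes 4 were tested and 2 were called, both as higher. These were *Zp3*, which encodes an egg coat protein (0.70, SE 0.19), and *Nobox*, which encodes a homeobox protein of oocytes (0.58, SE 0.13). Both stayed under 10 FPKM in every library. The list had 1 call without control replicate 1, control replicate 2, cKO replicate 2 or cKO replicate 3. It had 1 call with no filter on FPKM (median 0.33) or with the filter at 5 FPKM (median 0.32). With quantile normalization or without the intensity trend it had 3 calls.

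The X-linked factors *Rhox13* and *Sox3* differed in how their groups lay. The level of *Rhox13* was 86.3, 64.5 and 79.6 FPKM in control and 91.6, 105.9 and 97.9 FPKM in cKO. All cKO values were above all control values. The means were 76.8 ± 11.2 and 98.5 ± 7.14 FPKM (SD, n = 3), with a log2 fold change of 0.36 (SE 0.12, 95% interval 0.08 to 0.64) and a limma adjusted p of 0.054, just above the threshold. Its exact permutation p was 0.1. Of 15 other settings and left-out libraries, 6 put *Rhox13* past the threshold, with log2 fold changes of 0.24 to 0.45 over the 15. Without control replicate 1 it was 0.45 (limma adjusted p = 0.0409).

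The level of *Sox3* was 36.2, 51.9 and 46.8 FPKM in control and 53.6, 37.6 and 45.5 FPKM in cKO. The groups overlapped over nearly their whole ranges. The means were 45.0 ± 7.99 and 45.6 ± 7.98 FPKM (SD, n = 3), with a log2 fold change of 0.02 (SE 0.17, 95% interval -0.38 to 0.42, limma adjusted p = 0.94). A fold from 0.768 to 1.34 therefore lies within that interval. Leaving out control replicate 1 turned the value to -0.12 and leaving out cKO replicate 1 to -0.10.

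*Rhox13* lies on the X chromosome at 38121219 to 38129967 (plus strand, 3 exons) and *Sox3* at 60891366 to 60893430 (minus strand, 1 exon), and no 100-base window of either occurred in another gene. Of the 31 other *Rhox* genes of the X-linked homeobox cluster, 18 were tested and 9 were called, each of them as higher. The called genes include *Rhox5*, which is also listed among the Sertoli markers below. The median of the 18 was 0.63 on the log2 scale. *Rhox2d* was at 2.67 ± 0.771 FPKM in control and 7.96 ± 1.72 FPKM in cKO (1.29, SE 0.20), and *Rhox6* at 1.65 ± 0.654 and 4.54 ± 1.81 FPKM (1.03, SE 0.29). *Rhox2h* and *Rhox2a* rose by log2 fold changes of 0.93 and 0.79. The 9 calls became 5 and 4 without control replicates 1 and 2, 6, 6 and 3 without cKO replicates 1, 2 and 3, 3 with the filter at 5 FPKM and 4 with no filter, while the median stayed at 0.36 or above in each of these fits. The *Rhox2* genes are near-identical copies, so how fragments were split among them is uncertain. *Rhox1*, the paralog with the highest level, rose from 13.5 ± 2.44 to 20.7 ± 4.17 FPKM (0.57, SE 0.18, limma adjusted p = 0.048). Of 12 other X-linked genes of spermatogonia, 8 were called higher and 2 lower, with a median of 0.44. *Usp26*, which encodes a ubiquitin protease, rose from 22.2 ± 2.72 to 48.3 ± 2.14 FPKM (1.09, SE 0.096), and the ferritin-like gene *Fthl17c* rose by 1.07 (SE 0.21). Its relative *Fthl17a* fell by 1.04 on the log2 scale (SE 0.23). *Tex13a* was at 2.94 to 10.1 FPKM in control and was listed at 0 in all 3 cKO libraries.

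Of 19 other SOX genes 11 were tested, with 1 called higher, 2 lower and a median of 0.21. The median turned to -0.19 with the filter at 5 FPKM, which left 1 call, and there were 5 calls without control replicate 2, 5 with no filter, 5 with limma-voom and 6 with quantile normalization. *Sox30*, which encodes a factor of meiotic and postmeiotic germ cells, was at 19.4, 33.6 and 18.1 FPKM in control and 4.06 to 6.24 FPKM in cKO (-2.05, SE 0.25). *Sox6* fell from 2.01 ± 0.380 to 0.572 ± 0.0919 FPKM (-0.93, SE 0.15), and *Sox4* rose from 4.45 ± 0.855 to 6.57 ± 0.823 FPKM (0.48, SE 0.15, limma adjusted p = 0.047). *Sox12*, the SOX paralog with the highest mean over the 6 libraries, was not called, at 22.6 ± 3.94 and 19.6 ± 2.27 FPKM.

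*Kit* had the smallest spread among the control libraries of all 9 genes. Its level was 36.3, 37.1 and 36.4 FPKM in control and 41.0, 38.1 and 42.0 FPKM in cKO. All cKO values were above all control values, by a factor of 1.03 at the nearest pair. The means were 36.6 ± 0.454 and 40.4 ± 2.0 FPKM (SD, n = 3), with a log2 fold change of 0.14 (SE 0.065, 95% interval -0.02 to 0.29, limma adjusted p = 0.15). The upper end of the interval is a fold of 1.22. Set against *Sohlh1* in the same library, the log2 ratio of *Kit* was -1.03 ± 0.11 in control and -1.12 ± 0.075 in cKO (SD, n = 3), with overlapping groups and an exact permutation p of 0.3.

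The level of *Foxo1* was 7.86, 9.90 and 9.21 FPKM in control and 10.3, 9.0 and 10.6 FPKM in cKO. The groups overlapped, since cKO replicate 2 lay below control replicates 2 and 3. The means were 8.99 ± 1.04 and 9.98 ± 0.861 FPKM (SD, n = 3), with a log2 fold change of 0.14 (SE 0.11, 95% interval -0.12 to 0.40, limma adjusted p = 0.37). Its paralogs *Foxo3*, *Foxo4* and *Foxo6* were tested and none was called in limma, none had an unadjusted p under 0.05, and limma-voom called 0 of the 3. Their median was 0.09. *Foxo4* had the highest level of these, at 15.1 ± 0.767 FPKM in control and 16.2 ± 1.12 FPKM in cKO.

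*Kit* lies on chromosome 5 (75574916 to 75656722, plus strand) with 21 exons in its longest coding transcript, and *Foxo1* on chromosome 3 (52268336 to 52353221, plus strand) with 3 exons. GENCODE M21 gives *Kit* 8 transcripts, of which 6 retain an intron, and the gene length of 8911 bases in the table is the union of them all, while the longest coding transcript has 5241 bases. *Foxo1* shares 674 exonic bases with the antisense gene *Gm20402*, which was listed at 0 in every library. Of the pathway between KIT and FOXO1, 29 genes were listed and 28 tested, with 3 called higher and 2 lower. Their median was 0.06 on the log2 scale. The gene left untested was *Kitl*, which encodes KIT ligand and is made by somatic cells, at 0.404 to 1.94 FPKM. *Rictor*, which encodes a subunit of the mTOR complex that phosphorylates AKT, rose from 11.5 ± 0.285 to 15.6 ± 0.310 FPKM (0.40, SE 0.068). *Map2k1*, which encodes the kinase that activates ERK, rose from 23.6 ± 1.36 to 30.8 ± 1.61 FPKM (0.37, SE 0.075). *Grb2*, which encodes an adaptor of receptor tyrosine kinases, rose from 19.1 ± 0.986 to 24.4 ± 1.83 FPKM (0.34, SE 0.081). *Pik3ca*, which encodes a catalytic subunit of PI3K, fell from 5.68 ± 0.575 to 3.64 ± 0.465 FPKM (-0.53, SE 0.12). The limma adjusted p of these 4 genes were 0.00436, 0.00959, 0.0179 and 0.0156. The 5 calls of the list became 2 without control replicate 1, control replicate 3 or cKO replicate 3, and 3 without cKO replicate 1. With quantile normalization there were 8 calls (median 0.21).

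*Upp1* was the member with the lowest level, at 2.79, 4.82 and 3.21 FPKM in control and 2.69, 5.54 and 4.70 FPKM in cKO. The lowest and the highest of the 6 values were both cKO libraries. The means were 3.61 ± 1.07 and 4.31 ± 1.46 FPKM (SD, n = 3), with a log2 fold change of 0.19 (SE 0.25, 95% interval -0.41 to 0.79, limma adjusted p = 0.60). The interval is the widest of the 9 genes and holds folds from 0.750 to 1.73. The values rested on 83 to 159 fragments per library, and the coefficient of variation between libraries was 29.8% in control and 33.9% in cKO. *Upp1* lies on chromosome 11 (9118103 to 9136170, plus strand), with 9 annotated transcripts, of which 7 are protein-coding. Of 14 other genes of pyrimidine salvage and turnover, 11 were tested, with 1 called higher, 2 lower and a median of 0.12. *Tymp*, which encodes thymidine phosphorylase, fell from 4.81 ± 0.482 to 0.894 ± 0.0194 FPKM (-1.61, SE 0.12, limma adjusted p = 9.36e-05). *Dctd*, which encodes deoxycytidylate deaminase, rose from 5.35 ± 0.741 to 8.10 ± 1.02 FPKM (0.52, SE 0.13). *Uckl1*, a uridine-cytidine kinase-like gene, fell from 8.04 ± 0.986 to 5.95 ± 0.566 FPKM (-0.38, SE 0.12). The 3 calls of the list became 1 without control replicate 1 or cKO replicate 3, and 2 without control replicate 3 or cKO replicate 2.

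In control, the order of the levels was *Dmrt1*, then *Rhox13*, *Dmrtb1* and *Sohlh1*, then *Sox3* and *Sohlh2*, then *Kit*, *Foxo1* and *Upp1*, from 102.8 to 3.61 FPKM. Neighbours within the groups *Rhox13*, *Dmrtb1* and *Sohlh1*, and *Sox3* and *Sohlh2*, overlapped, and the other neighbours did not. In cKO the order was *Dmrt1*, *Rhox13* and *Sohlh1*, then *Sohlh2*, *Sox3* and *Kit*, then *Dmrtb1*, *Foxo1* and *Upp1*. There, *Rhox13* overlapped with *Sohlh1*, *Sohlh2* with *Sox3*, and *Sox3* with *Kit*. *Dmrtb1* was the third in control and the seventh in cKO, where its highest value of 33.7 FPKM lay below the lowest *Kit* value of 38.1 FPKM. The highest mean in control was 28.5 times the lowest. The order depends on the gene length by which FPKM is divided. For *Kit* that length, 8911 bases, includes 6 transcripts that retain an intron, and its longest coding transcript has 5241 bases. A shorter length would give *Kit* a higher level, so its place among its neighbours depends on the annotation.

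**Figure D3:**
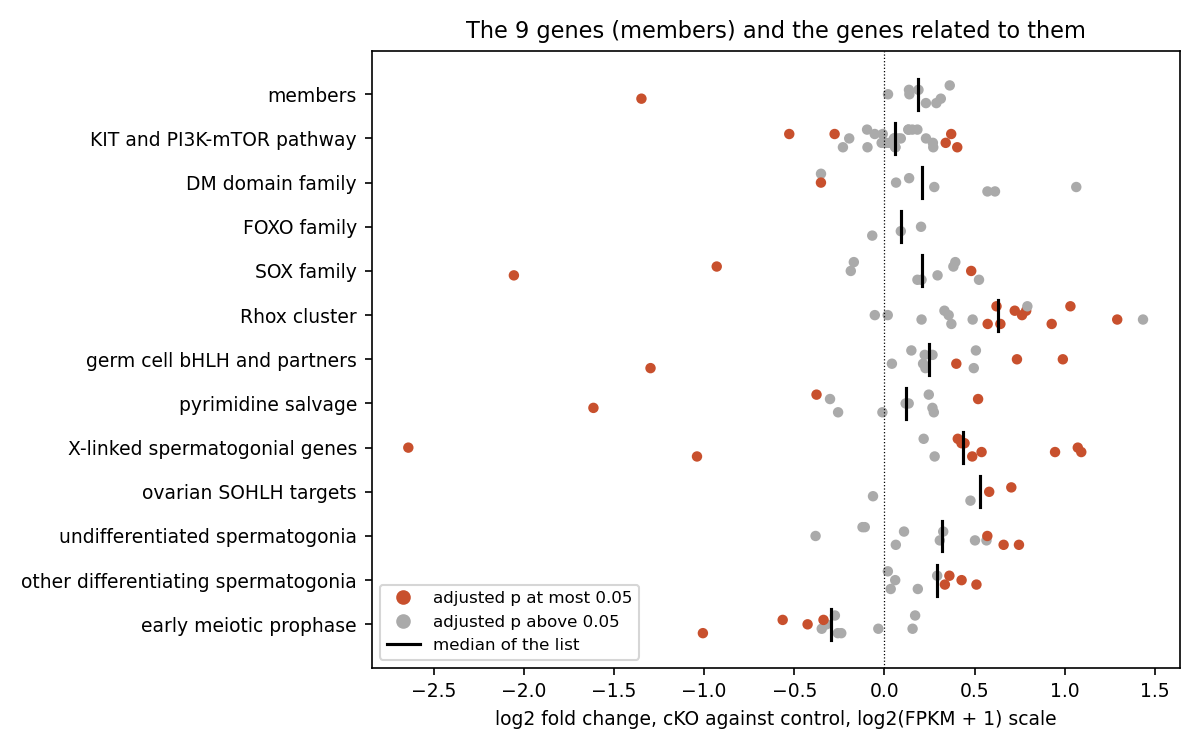
Log2 fold change of cKO against control on the log2(FPKM + 1) scale (horizontal axis) for each tested gene of the 9 members and of 12 lists of related genes (rows), red where the limma adjusted p was at most 0.05, with a line at each median. The median was 0.19 for the members, 0.63 for the *Rhox* cluster and -0.30 for the early meiotic genes.

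Beside the 9 members, other markers of the same cells were read from lists. Of 10 other genes of differentiating spermatogonia 9 were tested and 4 were called, each of them as higher, with a median of 0.29. These were *Crabp1*, which encodes a retinoic acid-binding protein (0.51, SE 0.13), *Dazl*, which encodes a germ cell RNA-binding protein (0.43, SE 0.099), *Dnmt3a*, which encodes a DNA methyltransferase (0.36, SE 0.088), and *Esx1*, an X-linked homeobox gene (0.34, SE 0.086). *Dazl* was at 392 ± 25.7 FPKM in control and 529 ± 50.7 FPKM in cKO. The 4 calls of this list became 1 without control replicate 1 or control replicate 3, 2 without cKO replicate 1 and 0 without cKO replicate 3. With the replicate number as a block there were 0 calls. Of 15 genes of undifferentiated spermatogonia 12 were tested and 3 were called, each of them as higher, with a median of 0.32. *Utf1*, *Bcl6b* and *Ret*, the last of which encodes the GDNF receptor tyrosine kinase, rose by 0.75, 0.66 and 0.57, and none exceeded 6 FPKM in any library. *Id4*, the stem cell marker listed with the helix-loop-helix genes, was not in this list and was lower (-1.30). The 3 calls of the undifferentiated list became 1 without control replicate 1 or cKO replicate 1, 2 without cKO replicate 2 and 0 without control replicate 3 or cKO replicate 3. With no filter there was 1 call. With the filter at 5 FPKM it had 0 calls and a median of -0.0002, with quantile normalization 7 calls and a median of 0.60, and with limma-voom 5 calls and a median of 0.57.

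Of 12 early meiotic genes 4 were called, each of them as lower, and the median was -0.30. Over all genes tested, 34.0% were called, 22.2% as lower. *Sycp1* and *Hormad1* lay above 0 (0.17 and 0.16) and were not called. *Spo11*, which encodes the enzyme that makes meiotic double-strand breaks, fell from 18.7 ± 3.33 to 8.85 ± 1.84 FPKM (-1.01, SE 0.18), and the meiotic cohesin gene *Rec8* fell from 20.7 ± 2.45 to 13.7 ± 1.38 FPKM (-0.56, SE 0.11). *Mei1* and the synaptonemal complex gene *Syce2* fell by 0.43 and 0.34 on the log2 scale. The 4 calls became 2 without control replicate 1, control replicate 3, cKO replicate 1 or cKO replicate 3, and 6 without control replicate 2. The pachytene list had 9 of 10 genes called lower and the spermatid list 10 of 10, with medians of -3.25 and -6.05. The part of these stage differences in the fall of *Dmrtb1* was not tested.

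Somatic cell markers were present in both groups, with the Sertoli genes highest. *Clu*, named because it was the most abundant of them, was at 32.6 to 79.3 FPKM over the 6 libraries. The summed level of 10 Sertoli markers was 88.4, 70.9 and 105.9 FPKM in control and 149.8, 58.7 and 86.8 FPKM in cKO, with 1 of 8 tested genes called, *Rhox5*, which was higher (0.72, SE 0.19). *Rhox5* was not called without control replicate 1, control replicate 2, cKO replicate 1 or cKO replicate 3, or with no filter on FPKM. The Sertoli median turned from 0.19 to -0.15 without cKO replicate 1. The summed level of 6 Leydig markers was 2.95 to 13.98 FPKM in control and 6.34 to 10.7 FPKM in cKO, and that of 8 macrophage and mast cell markers 5.67 to 9.39 and 5.28 to 7.37 FPKM. The 7 peritubular and endothelial markers summed to 4.403 to 7.10 FPKM in control and to 7.13 to 8.54 FPKM in cKO, without overlap. In these last 3 lists, 7 genes were tested and limma called 0, with 2 at an unadjusted p under 0.05, and limma-voom called 2. *Mcpt4*, a mast cell protease gene, was at 0 in all libraries.

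**Figure D4:**
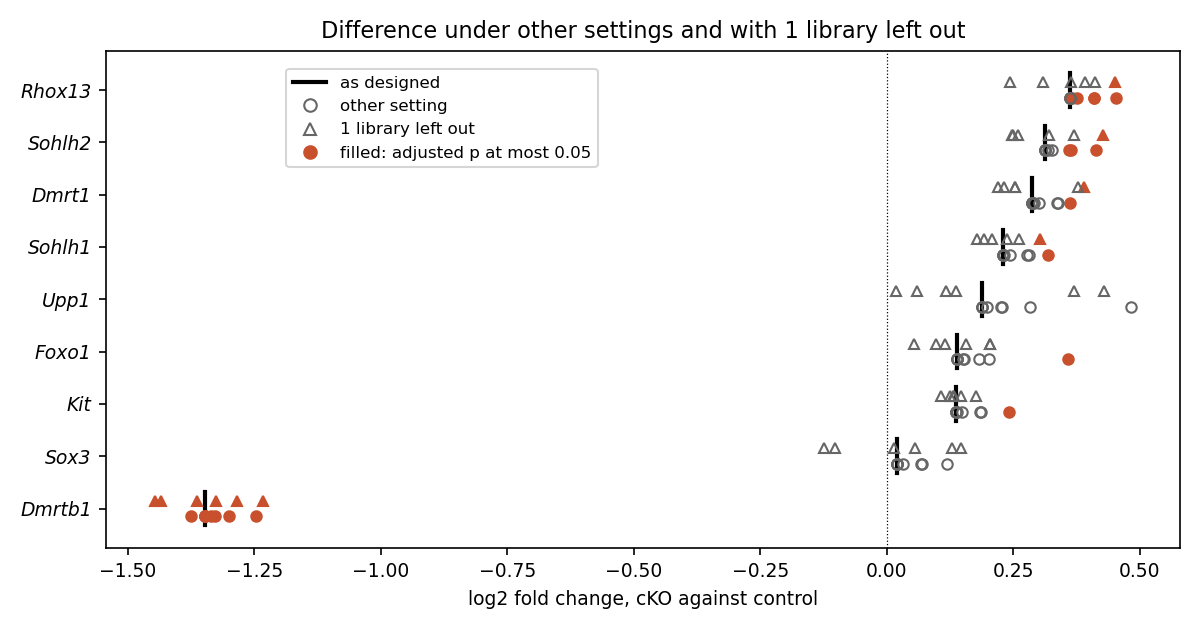
Log2 fold change of cKO against control (horizontal axis) for each of the 9 genes as designed (black line), under other settings (circles) and with 1 library left out (triangles), filled where the limma adjusted p was at most 0.05. *Dmrtb1* stays between -1.45 and -1.23 and is filled throughout, while the filled symbols of 6 other genes depend on the setting.

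Over 15 other settings and left-out libraries, the log2 fold change of *Dmrtb1* lay between -1.45 and -1.23, with limma adjusted p of 0.000189 to 0.00244, so it was called in all 15. Past the threshold were *Rhox13* in 6 of the 15, *Sohlh2* in 4, *Sohlh1* and *Dmrt1* in 2 each, and *Kit* and *Foxo1* in 1 each, always with a log2 fold change above 0. Quantile normalization moved the median of all genes from -0.0082 to 0.20, and with it 64.6% of the calls over all genes were higher in cKO, against 34.6% as designed. Under it, *Kit*, *Sohlh1*, *Sohlh2*, *Dmrt1*, *Foxo1* and *Rhox13* passed the threshold. Relative to its median, these 6 genes lay at 0.045 to 0.26 on the log2 scale, *Sox3* at -0.077 and *Dmrtb1* at -1.44.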

How the data were processed

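RNA-seq of STRA8+ cells from mouse testis was analysed in 6 libraries, grouped by the genotype in their labels (3 Cre, 3 *Srsf1* knockout). The authors deposited 1 table of FPKM for 54532 genes with gene lengths. The submitters' processing notes name HISAT2 2.0.5 and mm10. The counting tool and the annotation are not given in the sources used here, and 99.8% of the gene identifiers were in GENCODE M21.

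FPKM times gene length, divided by a step fitted to each library, fell within 0.1 of a whole number of fragments for 100% of values. This gave 15364511 to 17310353 fragments per control library and 14447887 to 15326722 per cKO library. The denominator of the deposited FPKM was 0.971 to 0.999 times these sums in control and 0.993 to 1.05 times in cKO, a factor that the labels do not describe. It can move every gene of a library alike.

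From the deposited FPKM, log2(FPKM + 1) was fitted with limma 3.58.1 in R 4.3.3 (lmFit, eBayes with an intensity trend, two-sided) for 15451 genes (mean of 1 FPKM or more), with Benjamini-Hochberg adjustment over all of them and a threshold of 0.05. Fold changes on this scale understate the change of low genes. Ratios between members and single genes were tested with an exact permutation test (scipy 1.17.1), whose smallest p was 0.1. The code was tested on simulated data. Alternatives were a pseudocount of 0.1, no filter or a mean of 5 FPKM, quantile normalization, median-of-ratios scaling, no intensity trend, a replicate block, limma-voom on recovered fragments, and leaving out each library. FPKM from the sum of recovered fragments was added after the data were seen. Sequences and motif windows came from RefSeq on GRCm38.p6, matched by gene symbol.

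The 9 genes and the lists of related genes were chosen with earlier results of these data known. Named from each list were up to 4 called genes with the largest absolute log2 fold change and, for paralogs, the gene with the highest level. *Clu* was named after its values were seen, and 1 called gene of the KIT pathway list is not reported here.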

Additional observations from a re-analysis of the deposited data

How the results depend on the processing

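Of 134 values of the 9 genes over 15 alternatives, 116 kept their direction and their side of the threshold, 16 passed the threshold only under the alternative, and 2 changed sign. *Dmrtb1* was called in limma in all 15. *Rhox13* passed with the filter at 5 FPKM (0.36), median-of-ratios scaling (0.38), limma-voom on recovered fragments (0.41) and FPKM from the sum of fragments (0.41), and *Sohlh2* passed with the last 2 of these (0.36 in both). With quantile normalization, *Kit* (0.24), *Sohlh1* (0.32), *Sohlh2* (0.41), *Dmrt1* (0.36), *Foxo1* (0.36) and *Rhox13* (0.45) passed. Leaving out 1 library gave 0.24 to 0.45 for *Rhox13*, 0.18 to 0.30 for *Sohlh1*, 0.25 to 0.43 for *Sohlh2*, 0.22 to 0.39 for *Dmrt1* and -0.12 to 0.15 for *Sox3*, which was below 0 without control replicate 1 (-0.12) or cKO replicate 1 (-0.10). The causes were not tested.

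Over all genes, 1821 were called higher and 3437 lower. Quantile normalization gave 4854 higher and 2665 lower, the filter at 5 FPKM gave 1950 lower out of 8929 tested, and leaving out 1 library gave 969 to 1767 higher (1068 without control replicate 1, 1079 without control replicate 3, 1172 without cKO replicate 1 and 969 without cKO replicate 3). The replicate numbers are shared by the groups, but same-numbered libraries did not deviate together (r of -0.0014, -0.11 and 0.016), and not every library correlated best with its own number. With the replicate number as a block, 891 genes were called higher and 2870 lower, and *Dmrtb1* was called (limma adjusted p = 0.00236). The 3 ratios between members moved by less than 1 SD under every alternative run. Of 534 counts and medians of the lists of related genes, 398 stayed within 1.5 times the count or within 1 SD of the median, and 136 did not. List medians that changed sign were those of the SOX genes (-0.19) and the undifferentiated genes (-0.0002) with the filter at 5 FPKM, of the Sertoli markers without cKO replicate 1 (-0.15), and of the macrophage and mast cell markers, from 0.0040 to between -0.14 and -0.06, with no filter and without control replicates 1 or 3 or cKO replicates 2 or 3. With the replicate block, the other genes of differentiating spermatogonia had 0 calls in limma in place of 4, the undifferentiated genes 1 in place of 3, the KIT pathway and early meiotic genes 2 each in place of 5 and 4, the helix-loop-helix genes 2 in place of 4, and the DM domain genes 0 in place of 1. *Upp1* is under the filter at 5 FPKM and has no value there. *Upp1* rests on the fewest fragments of the 9 genes, 83 to 159 per library.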

Other observations

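Within each group, *Dmrt1* and *Sox3* varied from library to library in the same order and *Rhox13* in the opposite order. This was seen in the values and was not tested, and none of the other 6 members kept either order in both groups. *Dmrt1*, *Sox3* and *Rhox13* were picked for this after their values were seen. *Dmrt1* and *Sox3* were lowest in control replicate 1 (93.1 and 36.2 FPKM), between in control replicate 3 and highest in control replicate 2 (118.0 and 51.9 FPKM). *Rhox13* and *Stra8* had the opposite order, with 86.3 and 262 FPKM in control replicate 1 and 64.5 and 222 FPKM in control replicate 2. In cKO, *Dmrt1* and *Sox3* were highest in replicate 1 (135.2 and 53.6 FPKM) and lowest in replicate 2 (110.3 and 37.6 FPKM), while *Rhox13* and *Stra8* were lowest in replicate 1 (91.6 and 242 FPKM) and highest in replicate 2 (105.9 and 313 FPKM). The 12 other X-linked genes of spermatogonia summed to 659, 544 and 623 FPKM in control replicates 1 to 3 and to 786, 944 and 806 FPKM in cKO replicates 1 to 3, in the same order as *Rhox13*. The 12 early meiotic genes summed to 1723, 1305 and 1587 FPKM in control, again in the order of *Rhox13*. In cKO they summed to 1293, 1590 and 1237 FPKM, where the lowest library was replicate 3.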
